A study of Mus musculus with 9 samples.

Results

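The 10 genes described here, all expressed in vascular endothelium, were measured in the RNA of newborn mouse cardiomyocyte isolates: the SoxF transcription factor genes Sox7, Sox17 and Sox18, the capillary endothelial genes Btnl9, Icam2, Car4, Cd300lg, Aqp1 and Rgcc, and Pecam1 as a general endothelial reference. They were chosen by name, as 10 of the 18738 genes in the table. All 10 passed the filter (1 TPM or more on average) that left 13655 genes for testing. TPM (the usual length-corrected unit for transcript abundance) gives a gene's share of all transcripts in its library. The isolates came from wild-type C57BL/6J pups at birth (P0). Their mothers had been randomly assigned 1 of 3 diets from fertilization to delivery. ND stands for the normal diet, sHFD for the slight high-fat diet and HFD for the high-fat diet, and each diet gave 3 libraries. All groups share the strain, the age and the isolation, and the labels do not say whether the libraries of a diet are separate litters, hearts or pools. The comparisons ask how newborn heart isolates differ after maternal high-fat feeding, a question that the series ties to cardiomyocyte proliferation.

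Endothelial cells line every vessel, and in the heart most of them are capillary cells that lie against the muscle fibres and pass oxygen, fatty acids and water to them. Sox7, Sox17 and Sox18 bind the same core DNA motif through a shared HMG box, act in part redundantly in vessel growth, and are known for arterial specification (Sox17 above all) and, for Sox18, for lymphatic vessel formation. Btnl9, a butyrophilin-like surface protein, Car4, a carbonic anhydrase tethered to the luminal membrane, and Cd300lg, a receptor of the CD300 family, are used as markers of capillary endothelium, while Aqp1 is a water channel of vessels and red cells. Icam2 is an adhesion molecule of endothelial junctions that platelets and leukocytes also carry, Rgcc is a regulator of the cell cycle, and Pecam1 encodes CD31, which is also found on platelets and leukocytes.

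The isolates were labelled as cardiomyocytes and held cardiomyocyte RNA: the summed level of 12 cardiomyocyte markers was 25193 to 59579 TPM in the 9 libraries. They held endothelial RNA as well, with 4353 to 6482 TPM summed over 20 pan-endothelial markers, each of which was measured above the filter. In such bulk RNA, fewer endothelial cells and less RNA of a gene per endothelial cell cannot be told apart. The library ND replicate 1 stood apart from the other ND libraries in several members. The HFD and ND values of the called members are given with and without it. Over all genes tested, its log2 values had a Pearson correlation (r) of 0.976 to 0.983 with the HFD libraries. Against ND replicates 2 and 3 the r was 0.951 and 0.973. ND replicate 2 had an r of 0.982 to 0.990 with the sHFD libraries, and of 0.951 and 0.979 with ND replicates 1 and 3. Both were closer to another diet than to their own, which bears on every comparison with ND. The reason was not tested. Read depth is unknown, since TPM does not keep it.

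In the RefSeq annotation of GRCm38.p6, 5 of the 10 genes lie on chromosome 11, which holds 8.22% of the 13624 tested genes that could be placed. These are Btnl9 (chr11:49168325-49187089, minus strand), Car4 (chr11:84957754-84966054, plus strand), Cd300lg (chr11:102041511-102055617, plus strand), Icam2 (chr11:106377656-106388139, minus strand) and Pecam1 (chr11:106654213-106715281, minus strand). The SoxF genes lie apart, with Sox17 at chr1:4490928-4497426 (minus strand), Sox18 at chr2:181669837-181671640 (minus strand) and Sox7 at chr14:63943706-63950732 (plus strand). Rgcc shares chromosome 14 with Sox7 (chr14:79288750-79301635, minus strand), and Aqp1 is at chr6:55336299-55348555 (plus strand). The Sox17 locus overlaps the predicted gene Gm37587 on the opposite strand. The sources used here do not say whether reads were counted by strand, so the Sox17 values are uncertain to that extent.

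Promoter sequences in the RefSeq table covered Btnl9, Car4, Aqp1 and Rgcc. They are shown because the other members had no promoter entry, among them Sox18 and Icam2, which were also lower after HFD than after ND. Btnl9 and Car4 were lower in that comparison, and Aqp1 and Rgcc were not called. Each sequence is the 250 bases before the start of the gene, 5′ to 3′ on the gene's own strand. Capitals mark matches on either strand to the cores AGGAAG (ETS family) or CACCC (KLF family). The Btnl9 lines give chr11:49187090-49187339 and then bases 21 to 50 after its start, chr11:49187040-49187069, where the capitals are a match to the SOX core ACAAT followed without a gap by a CACCC match. The others are Car4 at chr11:84957504-84957753, Aqp1 at chr6:55336049-55336298 and Rgcc at chr14:79301636-79301885.
Btnl9: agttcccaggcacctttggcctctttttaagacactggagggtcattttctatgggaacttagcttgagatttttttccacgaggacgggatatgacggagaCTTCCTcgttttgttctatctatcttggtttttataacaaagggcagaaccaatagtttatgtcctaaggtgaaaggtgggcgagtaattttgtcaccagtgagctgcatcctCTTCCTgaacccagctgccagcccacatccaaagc
Btnl9 after start: catttcACAATCACCCcctttagagggagg
Car4: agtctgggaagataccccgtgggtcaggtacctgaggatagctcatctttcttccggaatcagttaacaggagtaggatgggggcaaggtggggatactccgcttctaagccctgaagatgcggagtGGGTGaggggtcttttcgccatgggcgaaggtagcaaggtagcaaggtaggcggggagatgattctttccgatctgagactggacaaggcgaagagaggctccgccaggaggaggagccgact
Aqp1: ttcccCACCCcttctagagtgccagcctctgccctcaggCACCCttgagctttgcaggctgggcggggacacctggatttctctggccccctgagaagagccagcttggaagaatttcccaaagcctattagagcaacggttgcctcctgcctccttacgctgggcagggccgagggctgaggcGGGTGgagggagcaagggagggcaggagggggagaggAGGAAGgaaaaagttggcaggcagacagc
Rgcc: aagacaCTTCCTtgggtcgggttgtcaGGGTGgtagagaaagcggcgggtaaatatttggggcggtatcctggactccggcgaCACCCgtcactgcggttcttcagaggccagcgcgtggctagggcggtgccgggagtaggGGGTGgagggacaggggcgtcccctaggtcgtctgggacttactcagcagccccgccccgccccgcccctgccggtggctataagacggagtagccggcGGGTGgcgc

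Over the full windows of 300 bases (250 before and 50 after the start), ACAAT was found in Btnl9 only among these 4 genes, in 1 copy, against a share of 31.0% of all 32851 promoters of that length. AGGAAG was found in 2 copies in Btnl9, 1 in Aqp1 and 1 in Rgcc, and 35.4% of all promoters held it. CACCC was found in all 4, in 1 copy in Btnl9 and Car4, 3 in Aqp1 and 4 in Rgcc, with 57.5% of all promoters holding it. The GATA core AGATAA, held by 11.2% of all promoters, matched none of the 4 windows. These matches describe letters and were not tested against the expression values.

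In newborn isolates after HFD, 4 of the 10 genes were lower than after ND and 0 were higher, in a linear model fitted with limma to log2(TPM + 1) of all genes, with Benjamini-Hochberg adjustment over all of them and a threshold of 0.05. The 4 were Btnl9, Sox18, Icam2 and Car4. The background share called in this comparison was 10.9% of the genes tested, 9.59% lower and 1.28% higher. The median log2 fold change of the 10 was -0.33, beside -0.14 over all genes tested. Sox7, Sox17, Cd300lg, Aqp1, Rgcc and Pecam1 did not pass. In 3 of the 10, Btnl9, Sox18 and Icam2, every HFD library lay below every ND library, where 27.9% of all genes were separated in this way, 22.9% with HFD below and 5% with HFD above.

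**Figure D1:**
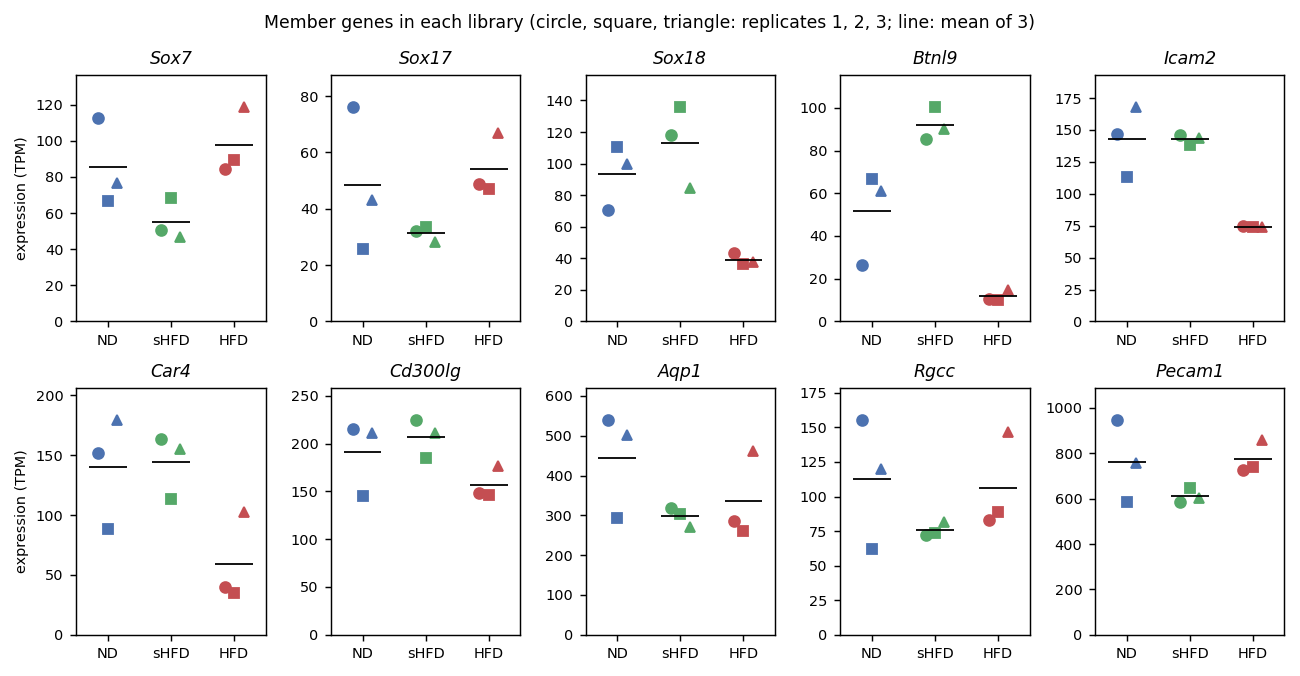
Expression in TPM (y axis, from 0, a separate scale for each gene) of the 10 genes in the 9 libraries by maternal diet, with circle, square and triangle for replicates 1, 2 and 3 and a line at the mean of 3. The HFD libraries of Btnl9, Sox18 and Icam2 lie below all ND and sHFD libraries, while those of Sox7, Sox17, Rgcc and Pecam1 lie above all sHFD libraries.

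Sox18, the SoxF gene known from lymphatic development, was at 70.4, 110.7 and 99.96 TPM in the ND libraries 1 to 3, at 118.2, 136.0 and 84.4 TPM in the sHFD libraries and at 43.3, 36.5 and 37.7 TPM in the HFD libraries. Every HFD library was below every library of the other diets, and ND and sHFD overlapped. The mean fell from 93.7 ± 20.8 TPM (SD, n = 3) after ND to 39.2 ± 3.61 TPM (SD, n = 3) after HFD, with a log2 difference of -1.22 (SE 0.21, limma adjusted p = 0.00938). Relative to the median of all genes in that comparison, the Sox18 change was -1.08.

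Sox17 and Sox7, the other two SoxF genes, did not follow Sox18. Sox17 was at 76.2, 25.7 and 43.2 TPM after ND, at 32.0, 33.6 and 28.2 TPM after sHFD and at 48.6, 47.0 and 66.8 TPM after HFD. Sox7 was at 112.5, 66.8 and 76.6 TPM after ND, at 50.6, 68.3 and 46.5 TPM after sHFD and at 84.3, 89.3 and 118.8 TPM after HFD. In both genes ND replicate 1 was the highest ND library, the ND and HFD libraries overlapped, and all HFD libraries were above all sHFD libraries. For HFD against ND the log2 fold change was 0.28 (SE 0.30, limma adjusted p = 0.564; 95% interval -0.36 to 0.91) for Sox17. For Sox7 it was 0.21 (SE 0.22, limma adjusted p = 0.551; 95% interval -0.26 to 0.68). Without ND replicate 1 the Sox17 value was 0.67 and passed (limma adjusted p = 0.0436), and the Sox7 value was 0.42 (limma adjusted p = 0.133). Without ND replicate 2 the Sox17 value turned to -0.10 (limma adjusted p = 0.839).

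The make-up of SoxF transcripts followed from these levels. Sox18 took 24.6%, 21.1% and 16.9% of the summed TPM of the 3 genes in the HFD libraries. Its share was 58.9%, 57.2% and 53.1% after sHFD and 27.2%, 54.5% and 45.5% after ND. The HFD shares were below all others, and ND replicate 1, at 27.2%, was the nearest to them. The summed SoxF level overlapped between diets, at 203.1 to 259.2 TPM after ND, 159.1 to 237.9 after sHFD and 172.8 to 223.3 after HFD.

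**Figure D2:**
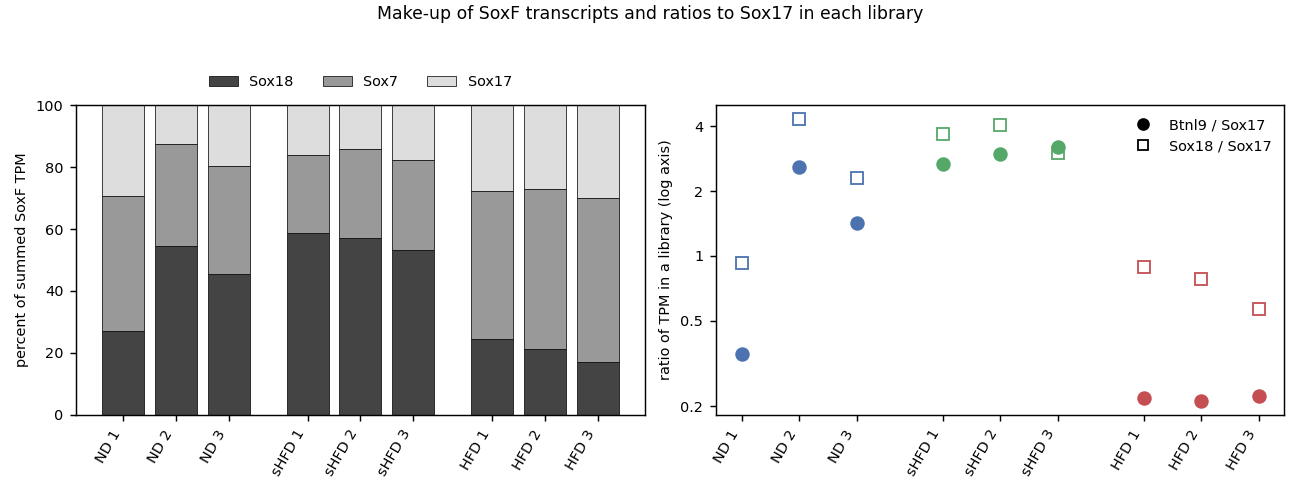
Left, the percent of summed SoxF TPM taken by Sox18, Sox7 and Sox17 in each library; right, the ratio of Btnl9 (filled) and Sox18 (open) to Sox17 in each library on a log axis, blue for ND, green for sHFD and red for HFD. The Sox18 share is 16.9% to 24.6% in the HFD libraries and 53.1% to 58.9% in the sHFD libraries, and the ratio of Btnl9 to Sox17 is 0.212 to 0.222 after HFD.

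The ratio of Sox18 to Sox17 within a library is unaffected by the library's total. It was 0.890, 0.777 and 0.565 after HFD, 3.69, 4.05 and 3.00 after sHFD, and 0.924, 4.31 and 2.31 after ND. The HFD ratios were below all others, with ND replicate 1 just above them. On a log2 scale HFD was lower than ND by a difference of -1.52 and lower than sHFD by -2.28. Without ND replicate 1 the difference from ND was -2.11, and without ND replicate 2 it was -1.0. A two-sided exact permutation test of 3 against 3 libraries gave p = 0.1 for each, the smallest p that this design allows, and 0.18 after adjustment over 9 such tests. The ratio of Sox7 to Sox17 differed by -0.07 between HFD and ND (exact permutation p = 0.9), and the libraries of the 2 diets overlapped.

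Btnl9 differed most among the 10 genes, with a range of 10.1-fold over the libraries. It was at 26.6, 66.8 and 61.2 TPM after ND, at 85.5, 100.5 and 90.0 TPM after sHFD and at 10.6, 9.98 and 14.8 TPM after HFD. The diets did not overlap in any comparison: sHFD was above ND, and ND above HFD. Between HFD (11.8 ± 2.63 TPM, SD, n = 3) and ND (51.5 ± 21.7 TPM, SD, n = 3) the log2 fold change was -1.95 (SE 0.28, limma adjusted p = 0.00539), and -1.81 relative to the median of all genes. It passed also without each of the 9 libraries in turn, at -2.36 to -1.71, and was -2.36 without ND replicate 1.

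Icam2, the junctional adhesion molecule, varied little among the HFD libraries and among the sHFD libraries. It was at 74.6, 74.1 and 74.3 TPM after HFD, at 146.5, 113.4 and 168.2 TPM after ND and at 146.1, 138.5 and 143.3 TPM after sHFD. All HFD libraries were lower than all others, and ND and sHFD overlapped, with means of 142.7 ± 27.6 and 142.7 ± 3.83 TPM (SD, n = 3 each). Icam2 fell by 0.91 on the log2 scale between ND and HFD (SE 0.16, limma adjusted p = 0.00938), or by 0.78 relative to the median of all genes.

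Car4, the capillary carbonic anhydrase, was at 39.8, 35.0 and 102.7 TPM after HFD, at 151.6, 88.6 and 179.5 TPM after ND and at 163.7, 113.9 and 154.9 TPM after sHFD. HFD replicate 3 lay far above the other HFD libraries and above ND replicate 2, so HFD and ND overlapped. The log2 fold change of Car4 was -1.34 (SE 0.35, limma adjusted p = 0.0309), and -1.20 relative to the median of all genes. The Car4 call did not pass without ND replicate 3 (limma adjusted p = 0.136), without HFD replicate 1 (0.111) or without HFD replicate 2 (0.143). It also missed the threshold in 4 of 10 other settings, with adjusted p-values up to 0.0755.

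Without ND replicate 3 or without HFD replicate 2, 1 of the 10 genes passed, which was Btnl9, while the calls over all genes dropped from 1484 to 39 and 31. Sox18 then had limma adjusted p-values of 0.0628 and 0.065, and Icam2 of 0.0629 and 0.065, while their log2 fold changes stayed at -1.16 and -1.17, and -0.79 and -0.91. Without ND replicate 1, 5 of the 10 passed, the 4 lower genes and Sox17 as higher, in a fit that called 3837 of all genes, 984 higher and 2853 lower. Sox18 was then at -1.41, Icam2 at -0.89 and Car4 at -1.25.

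The remaining capillary genes were less separated. Cd300lg was at 147.9, 145.9 and 176.4 TPM after HFD, and 215.7, 145.5 and 211.2 TPM after ND, which overlapped through ND replicate 2. Aqp1 was at 285.5, 259.6 and 462.5 TPM after HFD, and 539.4, 294.2 and 500.6 TPM after ND. Rgcc was at 83.1, 88.8 and 146.3 TPM after HFD, and 155.3, 61.7 and 120.2 TPM after ND. In all 3 genes HFD replicate 3 was the highest HFD library and ND replicate 2 the lowest ND library. Their log2 fold changes between HFD and ND were -0.27 for Cd300lg (limma adjusted p = 0.330), -0.40 for Aqp1 (limma adjusted p = 0.292) and -0.03 for Rgcc (limma adjusted p = 0.953), and Rgcc took the other sign with values scaled by median ratios (0.13), after quantile normalization (0.0095) and once a GC trend was removed (0.19).

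Pecam1, the general endothelial reference, was the most abundant of the 10 in each diet. It was at 946.6, 587.1 and 755.5 TPM after ND, at 583.4, 648.4 and 602.7 TPM after sHFD and at 727.7, 740.5 and 858.8 TPM after HFD. HFD lay within the range of ND and above sHFD. Between HFD and ND its log2 fold change was 0.05 (SE 0.18, limma adjusted p = 0.893; 95% interval -0.35 to 0.44), and -0.05 under quantile normalization.

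**Figure D3:**
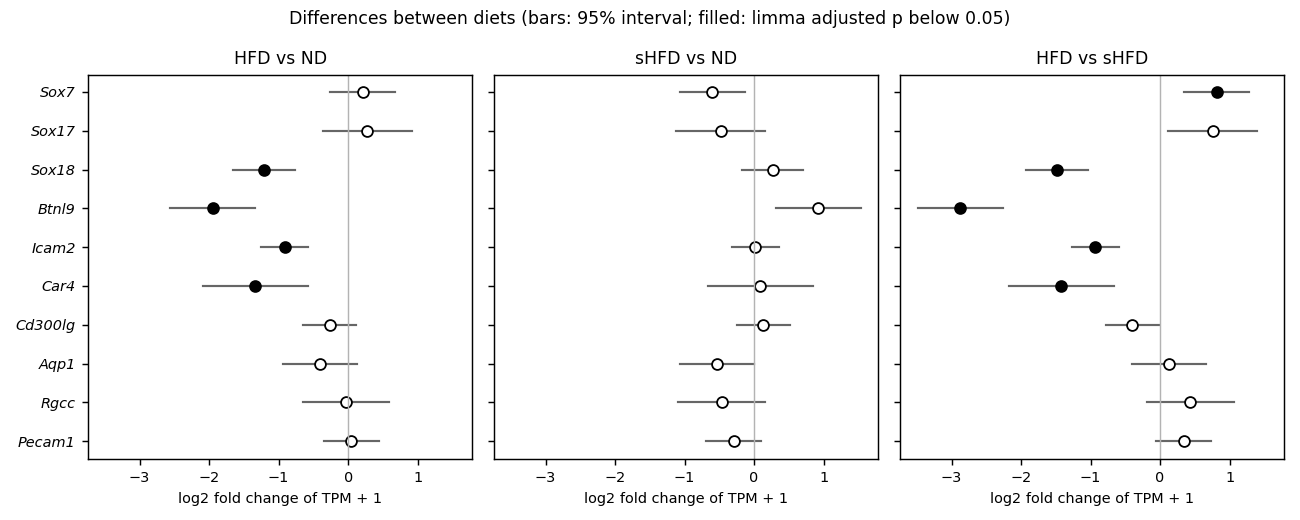
Log2 fold change of TPM + 1 (x axis) of each gene in the 3 comparisons, with 95% intervals from limma; filled circles passed an adjusted p of 0.05. Btnl9, Sox18, Icam2 and Car4 are filled and below 0 against ND and against sHFD, no gene is filled in sHFD vs ND, and Sox7 is filled above 0 in HFD vs sHFD.

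Measured against Pecam1 in the same library, which asks whether a gene differed beyond the endothelial reference, Btnl9 and Icam2 were lower after HFD than after ND, 2 of the 9 other genes. Of all genes, 0.564% passed in this form, 0.476% as lower and 0.0879% as higher. Btnl9 was at 1.46%, 1.35% and 1.73% of the Pecam1 level after HFD and at 2.81%, 11.4% and 8.10% after ND, a log2 difference of -1.996 (SE 0.37, limma adjusted p = 0.041). Icam2 was at 8.65% to 10.3% of Pecam1 in the HFD libraries and at 15.5%, 19.3% and 22.3% after ND, a log2 difference of -0.96 (SE 0.19, limma adjusted p = 0.0457). The HFD libraries were below all ND libraries in both genes. Sox18 missed the threshold at -1.26 (limma adjusted p = 0.057), as did Car4 at -1.39 (limma adjusted p = 0.0561). These calls were close to the threshold: Btnl9 and Icam2 each passed in 2 of 9 fits without 1 library, those without ND replicate 1 or ND replicate 2. Without ND replicate 1, 4 of 9 genes passed. Without ND replicate 2, Btnl9, Icam2 and Car4 passed (limma adjusted p = 0.04, 0.036 and 0.049). Without HFD replicate 3, 1 of 9 passed, which was Car4 (limma adjusted p = 0.0121). The count was 0 of 9 without ND replicate 3, without HFD replicate 1, without HFD replicate 2 or without any 1 of the sHFD libraries. The calls over all genes on this scale, 77 with every library, moved with them, to 4538 without ND replicate 1, 48 without HFD replicate 3 and 2 to 22 in the 6 fits that called 0 of the 9. Pecam1 itself varies between libraries, and its own deviations enter every value on this scale.

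The slight high-fat diet was compared with ND in the same fit. None of the 10 genes passed the limma threshold, 0 of 10, where 0.00732% of all genes did. Btnl9 was the only one of the 10 whose sHFD libraries (85.5 to 100.5 TPM) did not overlap the ND libraries (26.6 to 66.8 TPM). Of all genes 9.4% did not overlap, 4.5% with sHFD above and 4.9% with sHFD below. The Btnl9 log2 fold change was 0.93 (SE 0.28, 95% interval 0.31 to 1.54, limma adjusted p = 0.67). It was 0.52 without ND replicate 1, and was 1.16 and passed without ND replicate 2 (limma adjusted p = 0.0461). The fit without ND replicate 2 called 358 of all genes, 220 of them higher, against 1 with every library. Sox7 had a log2 fold change of -0.61 (95% interval -1.07 to -0.14, limma adjusted p = 0.672) and Sox18 of 0.26 (95% interval -0.18 to 0.71, limma adjusted p = 0.739). The other 7 lay between -0.53 for Aqp1 and 0.13 for Cd300lg, and their ND and sHFD libraries overlapped. Measured against Pecam1, 0 of 9 passed in limma, as did 0% of all genes. Without ND replicate 2, 2 of 9 passed on that scale, Btnl9 at 1.63 and Sox18 at 0.86, but 6455 of all genes then passed as well, 6317 of them as higher, so nothing is read from that count.

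Against sHFD, HFD libraries were lower in Btnl9, Sox18, Icam2 and Car4 and higher in Sox7, 5 of 10 genes by the limma test. The background share was 34.2% of all genes tested, 23.9% lower and 10.3% higher, and a share of 5 in 10 is read against it. This comparison shares the HFD libraries with that against ND and the sHFD libraries with that of sHFD against ND, so it is not separate evidence of their direction. Btnl9 was 7.79-fold lower in mean TPM (log2 fold change -2.88, SE 0.28, limma adjusted p = 0.000356), against 4.36-fold lower than after ND. The log2 difference was -1.48 for Sox18 (SE 0.21, limma adjusted p = 0.00109), -0.93 for Icam2 (SE 0.16, limma adjusted p = 0.00186) and -1.43 for Car4 (SE 0.35, limma adjusted p = 0.00898).

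Sox7 rose from 55.1 ± 11.6 TPM (SD, n = 3) after sHFD to 97.5 ± 18.6 TPM (SD, n = 3) after HFD, by 0.81 on the log2 scale (SE 0.22, limma adjusted p = 0.0133), and 0.97 relative to the median of all genes. Without sHFD replicate 3 it missed the threshold (0.70, limma adjusted p = 0.0591). Sox17, at 31.3 ± 2.79 and 54.1 ± 10.98 TPM (SD, n = 3 each), had a log2 fold change of 0.76 and an interval of 0.12 to 1.40 (limma adjusted p = 0.0626). It passed in 3 of 10 other settings, among them median-ratio scaling (limma adjusted p = 0.0352) and only these 2 diets in the fit (0.0039). It also passed in 2 of 9 fits without 1 library, without ND replicate 1 (limma adjusted p = 0.0104) and without ND replicate 2 (0.0129). In both the value stayed at 0.76, since ND is not in this comparison, and only the estimated spread changed. The limma adjusted p-value of Sox17 reached 0.113 over the settings and 0.185 without 1 library. In Sox7, Sox17, Rgcc and Pecam1 all HFD libraries were above all sHFD libraries, 4 genes, and in Btnl9, Sox18, Icam2, Car4 and Cd300lg all were below, 5 genes. Among all genes 51.3% were so separated, 16.6% above and 34.7% below. Aqp1 alone overlapped, at 0.13 (limma adjusted p = 0.708).

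Measured against Pecam1, 5 of 9 genes were lower after HFD than after sHFD and 0 were higher, in limma, beside 36.8% of all genes (33.7% lower and 3.09% higher). These were Btnl9 at -3.22, Sox18 at -1.82, Car4 at -1.77, Icam2 at -1.27 and Cd300lg at -0.74. Cd300lg was at 20.3%, 19.7% and 20.5% of Pecam1 after HFD and at 38.5%, 28.5% and 35.0% after sHFD, which did not overlap (SE 0.19, limma adjusted p = 0.00998). Without sHFD replicate 1 Cd300lg missed the threshold on this scale (limma adjusted p = 0.0565). With the mean of the pan-endothelial genes as the reference in place of Pecam1, its value was -0.32 and it did not pass (limma adjusted p = 0.159). Sox7 was 0.47 higher (limma adjusted p = 0.0626) and Sox17 0.42 higher (limma adjusted p = 0.156) on that scale.

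Over the 9 libraries the members fell into a pair of loose sets by the correlation of log2(TPM + 1), given as a description of libraries that share diets. Btnl9 and Sox18 had a Pearson r of 0.95, Btnl9 and Icam2 of 0.85, and Car4 and Cd300lg of 0.89. Pecam1 had an r of 0.97 with Sox17, 0.93 with Rgcc and 0.91 with Sox7. Between Btnl9, Sox18, Icam2, Car4 and Cd300lg on one side and Sox7, Sox17, Rgcc and Pecam1 on the other, no r was above 0.34, and the lowest were -0.75 for Btnl9 with Sox7 and -0.71 for Btnl9 with Sox17. Aqp1 lay with Pecam1 (0.74) and Rgcc (0.86) and had an r of 0.54 with Car4.

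**Figure D4:**
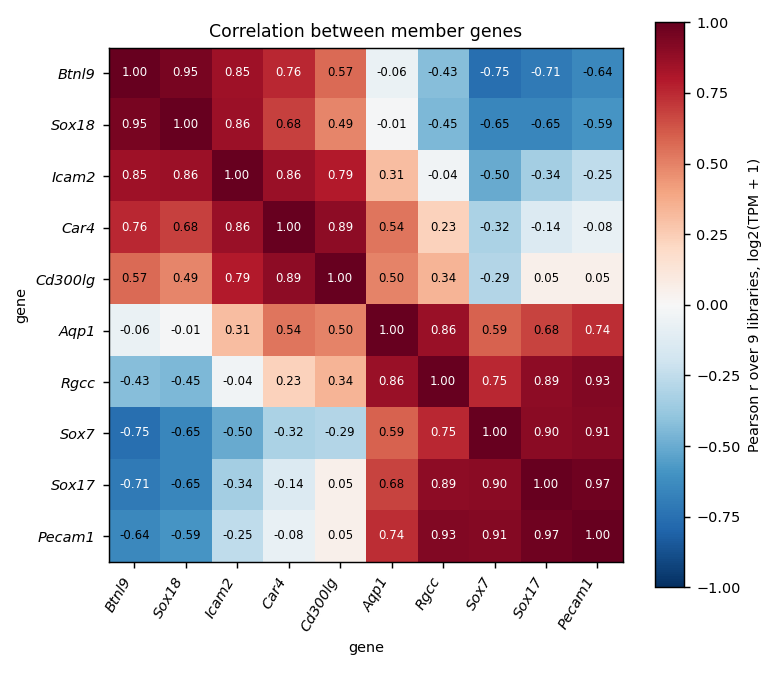
Pearson r of log2(TPM + 1) over the 9 libraries for each pair of the 10 genes (both axes list the genes, red positive, blue negative). Btnl9, Sox18, Icam2, Car4 and Cd300lg form 1 positive block and Rgcc, Sox7, Sox17 and Pecam1 another, with -0.71 between Btnl9 and Sox17.

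The order of mean levels in TPM, which is per transcript length, also differed. In each diet Pecam1 was highest, then Aqp1, then Cd300lg, and in each diet the Pecam1 and Aqp1 libraries did not overlap, nor did those of Aqp1 and Cd300lg. After ND, Icam2, Car4, Rgcc, Sox18 and Sox7 followed, each overlapping the next, and Btnl9 and Sox17 came last and overlapped. After sHFD, Sox17 was last (31.3 TPM) and Btnl9 stood between Sox18 and Rgcc. After HFD, Btnl9 was last (11.8 TPM) and Sox18 next above it (39.2 TPM), and neither overlapped its neighbour in that order.

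By correlation over the 9 libraries, among 10935 genes that averaged 5 TPM or more, the genes most like Pecam1 were Sfn and Ext2 (r = 0.98 each), Klf2 (0.98), Fam43a (0.97) and Carhsp1 (0.97). Klf2 encodes a transcription factor induced by blood flow in endothelium. The genes most like the mean of the other 9 members were Nkd1 (0.99), Npr1 (0.99), a natriuretic peptide receptor, Samd14 (0.98), Pltp (0.98) and Atp2a3 (0.97). That mean combines members that ran in opposite directions, such as Btnl9 and Sox7 (r = -0.75). A gene close to it therefore need not follow any single member. Cdh5, VE-cadherin, followed Sox17 with an r of 0.99.

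A list of 20 genes was drawn up as possible partners of SoxF factors or endothelial genes dependent on them. Whether each gene has that relation was not tested. Of the 20, 19 passed the filter, and Etv2 was listed at 0 in 7 of 9 libraries. Between HFD and ND, 2 of 19 were lower and 0 higher: Elk3, an ETS factor (-0.48, limma adjusted p = 0.0452), and Ctnnb1, which encodes beta-catenin (-0.70, limma adjusted p = 0.0453). This share was near the 9.59% of all genes called lower. Elk3 passed in 4 of 10 other settings and in 2 of 9 fits without 1 library, and Ctnnb1 in 3 of 10 and 1 of 9. The list median was 0.14, above the -0.14 of all genes. Between HFD and sHFD, 6 of 19 were higher and 4 lower, where 10.3% of all genes were called higher and 23.9% lower. The higher ones were Gata2 (1.41), Klf2 (1.13), Dll4 (1.07), a Notch ligand of arteries, Klf4 (0.98), Notch1 (0.76) and Efnb2 (0.76), and the lower ones Ctnnb1 (-0.96), Ets1 (-0.84), Elk3 (-0.53) and Kdr (-0.46), the main VEGF receptor. Between sHFD and ND, 0 of 19 passed the limma threshold.

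Other endothelial lists are given beside these members. Between HFD and ND, 9.59% of all genes were called lower and 1.28% higher, with a median of -0.14. A count of 1 lower gene in a list is therefore not read as a result about that list. Of 20 pan-endothelial genes 1 was lower after HFD than after ND, the ETS factor gene Erg (-1.06, limma adjusted p = 0.0148), and the list median was -0.21. Of 16 other capillary genes 5 were lower and 0 higher, with a list median of -0.33, beside -0.33 for the 10 members. Among the 5 were Slc28a2, a nucleoside transporter (-1.93, limma adjusted p = 0.00258), and Tcf15, a transcription factor of capillary endothelium (-0.96, limma adjusted p = 0.0121). Gpihbp1 (-0.53), which anchors lipoprotein lipase in capillaries, and the fatty acid handling genes Fabp4 (-0.29) and Cd36 (0.08) did not pass. Of 13 arterial genes 4 were lower and 0 higher, with a list median of -0.34. Gja5, a gap junction gene, was at -1.86 and Sema3g at -1.41, while Hey1 (1.00), Efnb2 (0.48), Dll4 (0.42) and Jag1 (0.27) had values above 0 and did not pass. Of 9 venous genes 1 was lower (Nrp2, -0.64), of 10 endocardial genes 0 were called, and of 7 lymphatic genes 1 was lower (Ccl21a, -2.09, limma adjusted p = 0.0497). Ccl21a is uncertain since near-identical copies exist, and its call held in 3 of 10 other settings and 4 of 9 fits without 1 library.

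Signals of other kinds moved with the same libraries. The mean log2 level of 14 immediate-early and heat-shock genes, which are induced within minutes of stress or tissue handling, was 8.20, 8.13 and 8.79 after HFD and 6.29, 6.35 and 6.43 after sHFD. It was 8.62, 6.20 and 7.61 after ND, where replicate 1 was at the HFD level and replicate 2 at the sHFD level. All 14 were called higher in HFD than in sHFD, where 10.3% of all genes were. Between HFD and ND 0 of 14 were called (median 0.73), where 1.28% of all genes were called higher. Over the ND libraries, Btnl9 and Sox18 were lowest in replicate 1, where this list was highest. Sox17, Sox7, Cd300lg, Aqp1, Rgcc and Pecam1 were highest there. Icam2 and Car4 were lowest in replicate 2, where this list was lowest, and highest in replicate 3. The part of this list in the values of the members was not tested.

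**Figure D5:**
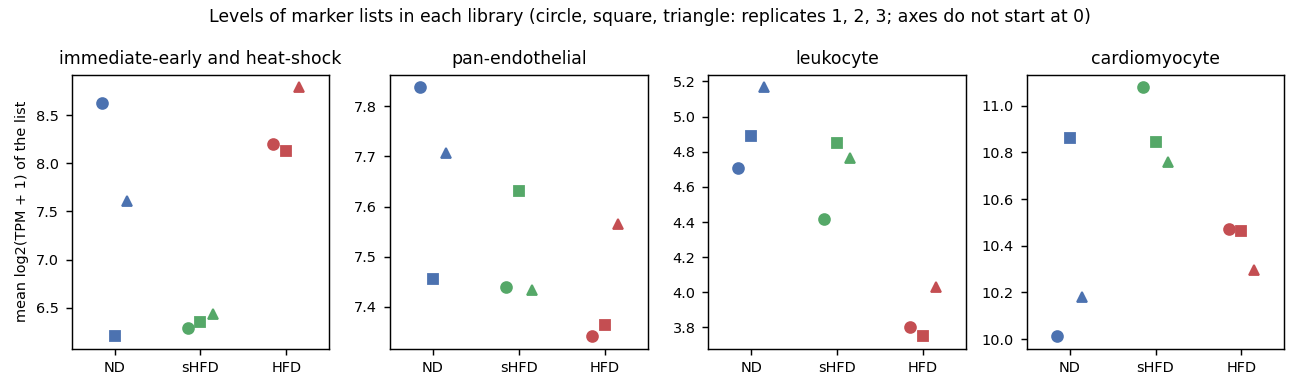
Mean log2(TPM + 1) (y axes, not from 0) of 4 marker lists in each library by diet, with circle, square and triangle for replicates 1, 2 and 3. The immediate-early and heat-shock mean is 8.62 in ND replicate 1 and 8.13 to 8.79 after HFD but 6.29 to 6.43 after sHFD; the leukocyte mean is 3.75 to 4.03 after HFD and 4.42 to 5.17 in the other diets.

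Leukocytes and platelets also express Icam2 and Pecam1, and red cells express Aqp1. Of 13 leukocyte markers 12 were lower after HFD than after ND, where 9.59% of all genes were called lower and 1.28% higher. The summed levels of the 13 were 295.0 to 345.6 TPM after HFD, 413.2 to 523.5 after sHFD and 534.0 to 742.3 after ND. Ptprc (CD45), the defining marker of leukocytes, was at 2.88 to 4.37 TPM after HFD and at 5.93 to 8.82 TPM after ND. Of 9 red cell markers tested 1 was lower, Alas2 (-0.99), near the share over all genes. The summed level of the 11 in the table was 2662 to 4857 TPM after HFD, 5934 to 8323 after sHFD and 5030 to 12275 after ND. Of 5 platelet markers tested 0 were called, and the summed levels of all 8 on the list were 35.1 to 39.4 TPM after HFD and 40.8 to 70.0 after ND. Of 12 pericyte and smooth muscle markers 6 were lower and 1 higher, while 0 of 10 fibroblast and 0 of 12 cardiomyocyte markers were called. The part of these cells in the levels of Icam2, Aqp1 and Pecam1 was not tested.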

How the data were processed

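Expression was read from 1 table of TPM values that the authors deposited for 9 libraries of mRNA-selected RNA. The submitters' processing notes name RSEM 1.3.1 and GRCm38 with no role. Which aligner and annotation were used is not given in the sources used here. Each column was matched to its sample by diet name and replicate number, with CON read as ND, MID as sHFD and HIGH as HFD. Depth cannot be recovered from TPM, so the precision of each value rests on the spread between libraries, which may be technical, since the labels do not name separate litters.

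From log2(TPM + 1), all genes averaging 1 TPM or more were fitted in limma 3.58.1 (R 4.3.3) with an intensity trend, 3 diets, 6 residual degrees of freedom and no replicate block, two-sided, with Benjamini-Hochberg adjustment over all 13655 genes. The same fit was run after subtracting Pecam1 in each library. There every gene shares the deviations of Pecam1, so the spreads of different genes are not independent of each other. Ratios between members were compared by an exact permutation test over libraries, a comparison chosen after the data were seen. A limma fit relative to Sox17 was run before it and dropped: its total degrees of freedom came to 377.8, from 6 residual ones, against 13.2 for log2(TPM + 1) and 14.1 relative to Pecam1. The fit of HFD against ND was tested on simulated data, and the fit relative to Pecam1 was not. Fold changes on this scale understate those of low genes.

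The members, the 16 lists and the tests were chosen with earlier results of these data known. Named genes were the members, the 5 genes most correlated with Pecam1 and the 5 most correlated with the mean of the others, the 2 genes of smallest p in HFD against ND of each list, and fixed reference genes. Named outside this rule, after their values were seen, were the genes called on the SoxF partner list, Etv2 and the arterial genes above 0. Alternatives covered pseudocounts, filters, scaling, reference, diets in the fit, the block and each library left out. A comparison of SoxF protein sequences was not used here. Promoters of Sox7, Sox17, Sox18, Icam2, Cd300lg and Pecam1 had no entry in the promoter sequences used. Positions and promoters were matched to RefSeq tables of GRCm38.p6 by gene identifier.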

Additional observations from a re-analysis of the deposited data

How the results depend on the processing

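Over the settings tried other than leaving out a library, 3 to 4 of the 10 members were called between HFD and ND, 5 to 7 between HFD and sHFD, and 0 between sHFD and ND. Leaving out 1 library at a time gave 1 to 5, 4 to 7 and 0 to 1. Relative to Pecam1, the count of 2 between HFD and ND was 4 with a pseudocount of 0.1, 1 with a pseudocount of 5, 4 with no filter on low values, 0 with only the 2 diets compared and 1 with no intensity trend. The calls over all genes in those fits were 232, 34, 165, 12 and 75, in that order, against 77 in the main fit. Leaving out a library gave 0 to 4 members between HFD and ND relative to Pecam1, 0 to 2 between sHFD and ND and 4 to 7 between HFD and sHFD. Why these counts moved was not tested. Btnl9 was called between HFD and ND under all 10 settings, Sox18 and Icam2 under all 10 settings and in 7 of 9 fits without 1 library, and Car4 under 6 of 10 settings and in 6 of 9 such fits.

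Median-ratio scaling moved the median change over all genes between HFD and ND from -0.14 to 0.0084, and the calls over all genes from 175 higher and 1309 lower to 670 higher and 993 lower. Between HFD and sHFD, 1406 higher and 3259 lower became 2600 and 2614. The total between HFD and ND was 1484, 763 with no filter on low values, 456 with only the 2 diets compared and 31 to 3837 without 1 library. Relative to Pecam1 it was 77 (12 higher, 65 lower), 12 to 794 under the settings and 2 to 4538 without 1 library. With the pan-endothelial mean as reference it was 596 higher and 198 lower, and between HFD and sHFD 422 higher and 4596 lower became 1691 and 1920, so the shares over all genes hold for the Pecam1 reference only.

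Directions turned between HFD and ND for Rgcc (0.13 with median-ratio scaling, 0.0095 with quantile normalization, 0.19 with a GC trend removed, and 0.21 relative to the pan-endothelial mean) and for Pecam1 (-0.054 with quantile normalization). They also turned for Icam2 between sHFD and ND (-0.0059 with a GC trend removed) and for Aqp1 between HFD and sHFD (0.21 relative to the pan-endothelial mean). Removal of a GC trend was added after the data were seen. Without 1 library at a time, log2 differences between HFD and ND ran from -0.41 to 0.25 for Rgcc, -0.10 to 0.67 for Sox17, -0.13 to 0.22 for Pecam1, -0.066 to 0.22 for Tnnt2, -0.020 to 0.41 for Cdh5, -0.063 to 0.24 for Cd36, -0.14 to 0.56 for Sfn, -0.067 to 0.16 for Ext2, -0.29 to 0.57 for Klf2, -0.11 to 0.69 for Fam43a and -0.041 to 0.33 for Carhsp1. Relative to Pecam1 they ran from -0.28 to 0.034 for Rgcc. Between sHFD and ND they ran from -0.14 to 0.14 for Icam2, -0.049 to 0.23 for Cd300lg, -0.21 to 0.29 for Car4 and, relative to Pecam1, -0.39 to 0.031 for Sox17. Between HFD and sHFD they ran from -0.13 to 0.29 for Aqp1 and, relative to Pecam1, -0.085 to 0.20 for Rgcc. The log2 ratio of Sox7 to Sox17 ran from -0.25 to 0.16, -0.30 to 0.11 and -0.022 to 0.16 in the 3 comparisons.

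Same-numbered libraries had correlations of their deviations from the diet means of -0.29 to 0.41, and 4 of 9 libraries correlated best with their own number, so the numbers were not taken as pairs. With the replicate number as a block, 4, 0 and 5 of the 10 members were called in HFD against ND, sHFD against ND and HFD against sHFD. The block fits called 1686, 0 and 4722 of all genes in the same order. Relative to Pecam1, 4, 0 and 5 of 9 members were called, beside 358, 0 and 5477 of all genes. Without the block 77 of all genes were called between HFD and ND on that scale.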
